A study of Homo sapiens with 5 samples.

Results

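The genes described here are 10 members of the S100 family of small calcium-binding proteins that are found in epidermis: S100A2, S100A6, S100A7, S100A8, S100A9, S100A11, S100A13, S100A14, S100A16 and S100P. They were taken by gene symbol from a table of 27933 symbols, and all 10 were in it. The table holds RNA levels of HaCaT cells, an established human keratinocyte line, in 3 libraries labelled AHNAK knockdown and 2 libraries labelled control. The labels give no other treatment, and they do not name the control agent or the interfering RNA. The series' design text calls the cells a knockout. AHNAK encodes a very large scaffold protein at the plasma membrane, and the series title places it downstream of oncostatin M and its receptor in keratinocytes. The labels do not say whether libraries of a group came from separate cultures, so each p-value reflects the spread among the 5 libraries alone, which may be technical.

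S100 proteins are small EF-hand proteins that mostly act as dimers. Binding of calcium opens a surface that docks onto target proteins, among them annexins, cytoskeletal proteins and, for some members, cell surface receptors. Most human S100 genes lie together on chromosome 1, within and beside the epidermal differentiation complex that also holds the cornified envelope genes. In skin, S100A7 (psoriasin), S100A8 and S100A9 are known as alarmins that keratinocytes make in wounded or psoriatic epidermis. Others, such as S100A6 and S100A11, are abundant in keratinocytes in culture. S100A10, another family member, binds annexin A2 and, with it, AHNAK.

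Of the 10 genes, 9 lie on chromosome 1 and S100P lies on chromosome 4 (GENCODE release 29, GRCh38). S100A9 (ENSG00000163220.10, chromosome 1, 153357854 to 153361027, plus strand), S100A8 (ENSG00000143546.9, chromosome 1, 153390032 to 153391188, minus strand) and S100A7 (ENSG00000143556.8, chromosome 1, 153457744 to 153460701, minus strand) span 102.8 kb. The genes S100A6, S100A2, S100A16, S100A14 and S100A13 follow in that order after a gap of 73.9 kb, and S100A11 lies 1309.95 kb on the other side of S100A9. Their identifiers are ENSG00000197956.9 (S100A6), ENSG00000196754.10 (S100A2), ENSG00000188643.10 (S100A16), ENSG00000189334.8 (S100A14), ENSG00000189171.14 (S100A13) and ENSG00000163191.5 (S100A11), and S100P is ENSG00000163993.6. A TATAAA on the gene's own strand, beginning 35 to 20 bases before the start, was found by a letter search at 5 of the 16 start sites that RefSeq (GRCh38.p14) lists for the 10 genes, against 2.21% of 35116 promoters of all genes. Each of these 5 start sites belongs to a different gene, and the 30 bases around the match, 45 to 16 bases before the start, are shown with TATAAA in capitals because all 3 alarmin genes are among them.
S100A7, chr1:153460667-153460696, minus strand: agagccaggctgagcctTATAAAggactgc
S100A8, chr1:153391089-153391118, minus strand, the second of 3 starts: ggccaagcctaaccgcTATAAAaaggagct
S100A9, chr1:153357809-153357838, plus strand: ccagtcaggagctgccTATAAAtgccgagc
S100A13, chr1:153627521-153627550, minus strand, the second of 3 starts: ctccttccccgctgctTATAAAcctcagcc
S100P, chr4:6693833-6693862, plus strand: tcaatatgaggctgcctTATAAAgcaccaa

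The whole stretch of 250 bases before the start is shown for S100A9, the alarmin of highest level in these cells.
S100A9, chr1:153357604-153357853, plus strand: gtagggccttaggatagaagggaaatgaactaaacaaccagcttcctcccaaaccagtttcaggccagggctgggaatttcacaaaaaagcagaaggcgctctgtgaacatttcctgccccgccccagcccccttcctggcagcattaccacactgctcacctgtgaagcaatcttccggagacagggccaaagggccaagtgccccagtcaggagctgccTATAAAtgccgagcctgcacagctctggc
This stretch holds 4 CpG dinucleotides, and those before S100A7 and before each start of S100A8 hold 1 and 2, where the median over all promoters is 11. The stretches before S100P (4), S100A14 (4), both starts of S100A2 (4 and 3) and both of S100A16 (1 and 6) were also under that median, as were 13 of the 16 starts in all. Those at or above it were S100A6 (24), S100A11 (15) and the first start of S100A13 (15), none of them among the genes of lowest level. The stretches under it belonged to low genes (S100A7, S100A8, S100A9 and S100P) and also to abundant ones (S100A2, S100A14 and S100A16). A relation of CpG content to level was not tested. The same stretches were searched on both strands for C/EBP (TTNCNNAA), AP-1 (TGANTCA) and NF-kappaB letters (GGG, any 2 bases, TT, any base, CC). The C/EBP letters were found before S100A9 (173 bases before the start), S100A8, S100A6, S100A11, S100A13, S100A16 and S100P, at 8 of the 16 starts, and in 33.2% of all promoters. AP-1 letters were found only before the first start of S100A2, 52 bases upstream, and in 6.57% of all promoters. NF-kappaB letters were found only before S100A14, and in 5.07% of all promoters. No motif match says that a factor binds there.

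The values are FPKM, fragments per kilobase of transcript scaled to each library's mapped fragments, so levels can be set side by side between genes. FPKM summed to 386096 to 420541 in the knockdown libraries, against 374215 and 391071 in the controls, and the absolute read depth is unknown. Counts of genes at 1 FPKM or more lay between 12087 and 12311. AHNAK itself was at 113.9, 69.6 and 115.3 FPKM in knockdown replicates 1, 2 and 3, against 204.8 and 242.0 FPKM in control replicates 1 and 2. Its log2 difference was -1.19 (set A -0.83, set B -1.79). These sets come from the low values: 20.1% to 25.1% of low genes stood at 1 constant ratio between any pair of control replicate 1 and knockdown replicates 1 and 3 (set A), and 17.0% between control replicate 2 and knockdown replicate 2 (set B), against at most 3.96% in other pairs. No label describes the sets, and differences within them are given beside the pooled ones. Each difference is the mean of log2(FPKM + 0.5) in knockdown less that in control, a scale that understates changes of low genes. Testing used limma on the 12196 genes whose mean over the libraries reached 1 FPKM. In bulk RNA, fewer cells that express a gene and less RNA per cell cannot be told apart.

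None of the 10 genes reached an adjusted p under 0.05 by limma with Benjamini-Hochberg adjustment across the table, and 0 of 12196 genes did (0% called). In another run limma weighted the libraries by their spread. Knockdown replicates 1, 2 and 3 then had weights of 0.530, 3.98 and 0.257, so the knockdown group rested mostly on replicate 2. With these weights 4 of the 10 passed (S100A7, S100A9, S100A8 and S100A14), among 1428 of all 12196 tested genes. At an unadjusted p under 0.05, 4 of the 10 were higher in knockdown (S100A7, S100A9, S100A8 and S100A14) and 0 were lower, where 6.22% of all tested genes were higher and 5.48% lower. The same 4 genes were higher in every knockdown library than in both controls, and S100A16 was lower in every one. That is 5 of 10 with groups that did not overlap, against 32.0% of all tested genes (16.2% higher, 15.8% lower). The other 5 genes, S100A2, S100A6, S100A11, S100A13 and S100P, overlapped between groups. The median log2 difference of the 10 was 0.11, beside 0.01 over all tested genes. All 10 passed the filter on low values, S100A7 only through its knockdown level, so its presence among the tested genes already favoured a difference.

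**Figure D1:**
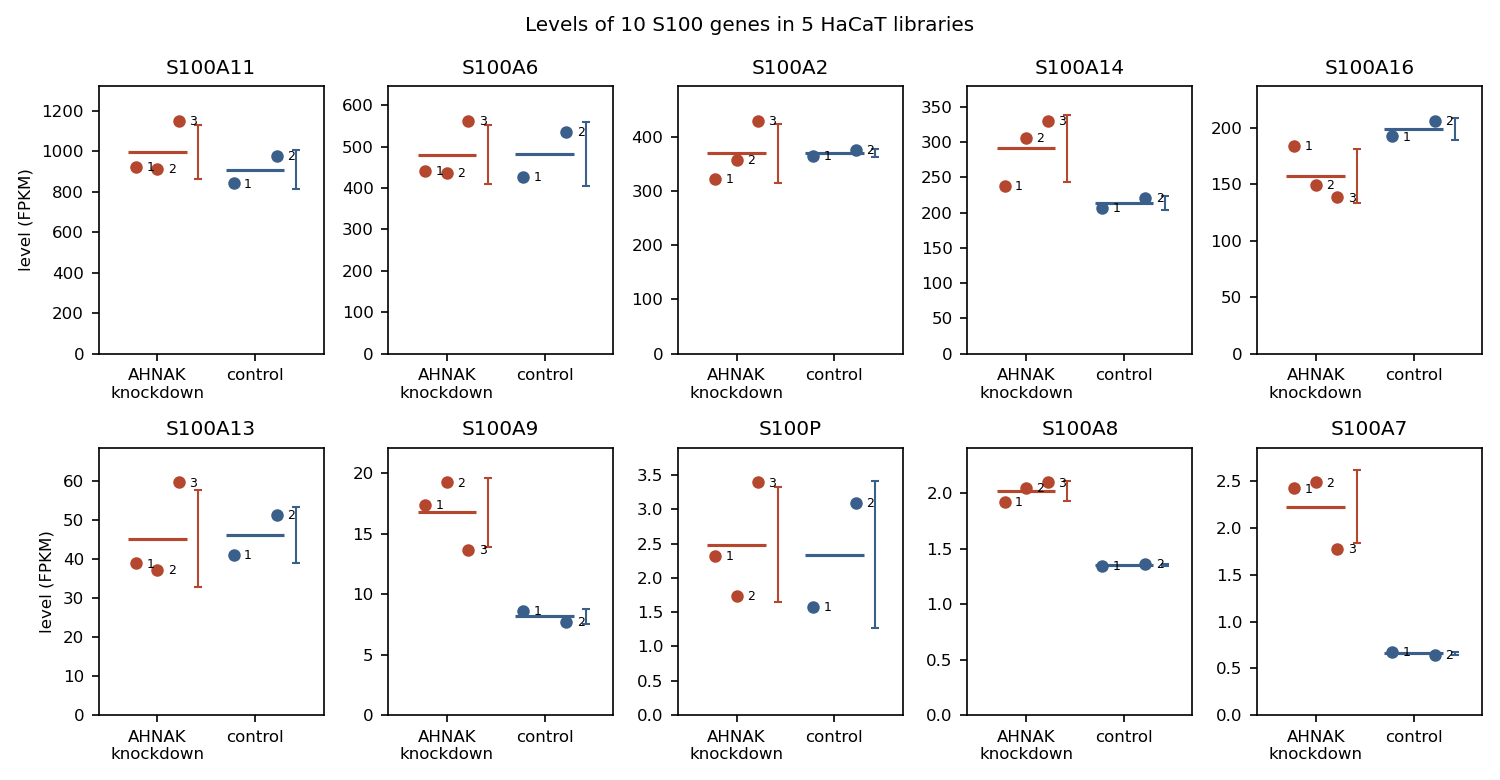
Level in FPKM (vertical axes from 0, a separate scale for each gene) of the 10 S100 genes in 3 AHNAK knockdown libraries (red, left) and 2 control libraries (blue, right). Numbers are replicates, lines are group means and bars beside them are 1 SD. Knockdown points lie above all control points for S100A14, S100A9, S100A8 and S100A7 and below them for S100A16.

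S100A7, an antimicrobial and chemotactic alarmin, had the largest difference of the 10 and the lowest level. It stood at 2.42, 2.49 and 1.78 FPKM in knockdown replicates 1, 2 and 3, against 0.672 and 0.647 FPKM in the controls. Every knockdown library was above both controls, and replicate 3 was the lowest of the knockdown libraries. The means were 2.23 ± 0.39 FPKM in knockdown (SD, n = 3) and 0.660 ± 0.017 FPKM in control (SD, n = 2), or 3.38 times as much in knockdown. On the log2 scale this was 1.22 (SE 0.18, with 0.80 to 1.65 as the 95% confidence interval, limma adjusted p = 0.372). Set A alone gave 1.14 and set B 1.38. An exact two-sided permutation test over the 10 ways of dividing the libraries gave p = 0.1, the smallest this design allows. S100A7A, a near-identical copy whose transcript matches that of S100A7 at 95.8% of 424 aligned bases, was at 0.005 to 0.030 FPKM in knockdown and 0.0007 to 0.016 FPKM in control. Reads of the pair may be divided between them, so the S100A7 level is uncertain to that extent.

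S100A9 and S100A8 form calprotectin, a heterodimer that binds zinc and manganese and acts as an extracellular danger signal. S100A9 was at 17.4, 19.3 and 13.7 FPKM in knockdown replicates 1, 2 and 3, against 8.62 and 7.70 FPKM in the controls. The groups did not overlap, and the knockdown libraries stood in the same order as for S100A7. Means were 16.8 ± 2.86 FPKM in knockdown (SD, n = 3) and 8.16 ± 0.65 FPKM in control (SD, n = 2), or 2.06 times as much in knockdown. The fitted difference was 0.99 on the log2 scale (SE 0.17, interval 0.57 to 1.40, limma adjusted p = 0.372). Set A alone gave 0.80 and set B 1.27. Of all tested genes, 1.17% had a difference at least this large in either direction.

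S100A8 had a smaller fitted difference than its partner, and the gap between them was tested only as a ratio. S100A8 stood at 1.92, 2.04 and 2.10 FPKM in knockdown replicates 1, 2 and 3, against 1.34 and 1.36 FPKM in the controls. The spread within each group was small, and the groups did not overlap. Its log2 difference of 0.44 (SE 0.14, interval 0.11 to 0.78, limma adjusted p = 0.389) was close to the values of set A (0.44) and set B (0.45). S100A9 exceeded S100A8 in every library, by 9.09, 9.42 and 6.51 times in knockdown and by 6.41 and 5.67 times in control. Every knockdown ratio was above both control ratios, replicate 3 only slightly, and the exact two-sided permutation p was 0.2, where 0.1 is the smallest possible.

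Depth appeared to differ between the libraries that these values compare. Read totals are not given, so this rests on steps between low values alone. With a step taken as 1 read, that read was worth 1.22 times as many FPKM in knockdown replicate 1 as in control replicate 1. In knockdown replicate 3 it was worth 1.40 times as many. The FPKM ratios of S100A8 to control replicate 1 were 1.43 and 1.56 in these libraries, which with the scaling for depth undone would be 1.17 and 1.11 as ratios of raw reads. For S100A9 the FPKM ratios were 2.02 and 1.58, and the read ratios 1.65 and 1.13. For S100A7 they were 3.61 and 2.65, and the read ratios 2.95 and 1.89. In set B, 1 read was worth 1.08 times as many FPKM in knockdown replicate 2 as in control replicate 2. Read ratios there were 1.40 for S100A8, 2.33 for S100A9 and 3.58 for S100A7. All 9 raw ratios were above 1. They are not corrected for depth, whereas the FPKM ratios are.

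**Figure D2:**
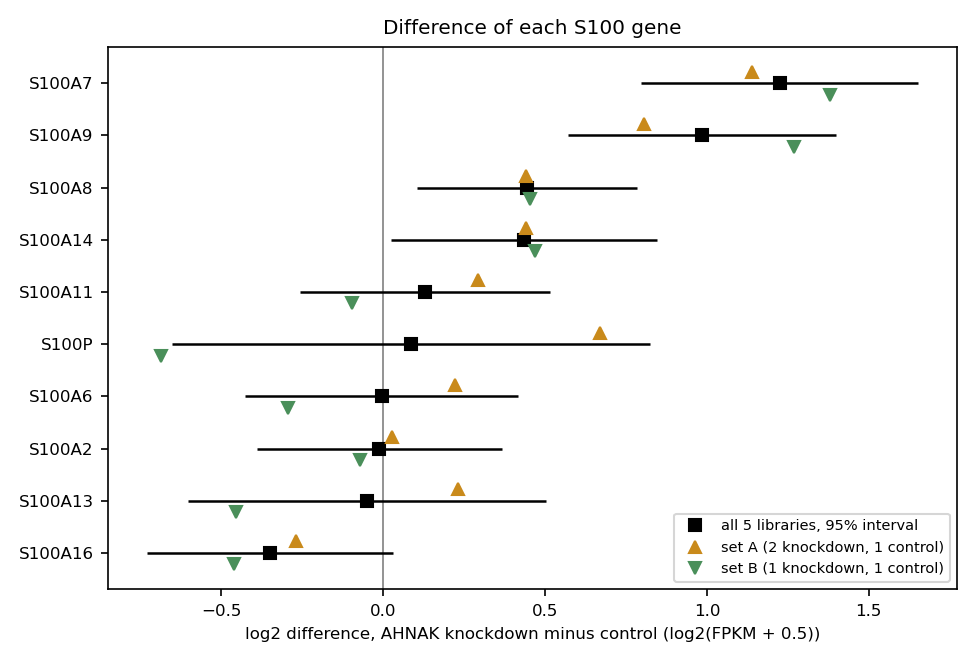
Log2 difference of each S100 gene, AHNAK knockdown minus control (horizontal axis, log2(FPKM + 0.5)), over all 5 libraries (squares, lines are 95% confidence intervals from limma) and within set A (upward triangles) and set B (downward triangles). For S100A7, S100A9, S100A8, S100A14 and S100A16 both sets lie on the same side of 0, and for the other 5 they lie on opposite sides.

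S100A14 and S100A16 are abundant epithelial members whose genes lie side by side on the minus strand, 1.11 kb apart, and they differed in opposite directions. S100A14 was at 237.9, 306.1 and 330.3 FPKM in knockdown replicates 1, 2 and 3, against 206.3 and 221.1 FPKM in the controls. Knockdown replicate 1 lay close to the controls and the other 2 well above them. Its log2 difference was 0.43 (SE 0.17, interval 0.02 to 0.84, limma adjusted p = 0.412). The 2 sets gave 0.44 (A) and 0.47 (B).

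S100A16 was at 184.0, 149.5 and 138.4 FPKM in knockdown replicates 1, 2 and 3, against 192.3 and 206.1 FPKM in the controls. The order of the knockdown libraries was the reverse of that for S100A14. Knockdown minus control came to -0.35 on the log2 scale (SE 0.16, interval -0.73 to 0.03, limma adjusted p = 0.458). Within sets it was -0.27 (A) and -0.46 (B). The ratio of S100A14 to S100A16 was 1.29, 2.05 and 2.39 in knockdown replicates 1, 2 and 3, against 1.07 in both controls. The control ratios were almost equal and the knockdown ratios were all higher, with an exact two-sided permutation p of 0.2.

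S100A2, a mostly nuclear member known as a target of p53 family factors in keratinocytes, was at 321.5, 356.9 and 429.2 FPKM in knockdown replicates 1, 2 and 3, against 364.4 and 374.9 FPKM in the controls. The controls lay inside the range of the knockdown libraries. The log2 difference was -0.01 with a 95% interval of -0.39 to 0.37 (limma adjusted p = 0.983, set A 0.027, set B -0.071). S100A6 (calcyclin), a partner of annexins and of CACYBP, was at 441.2, 437.5 and 562.6 FPKM in knockdown, against 427.1 and 536.4 FPKM in control. Knockdown replicate 3 and control replicate 2 were high and the other 3 libraries lay together. The log2 difference was 0.00 to 2 decimals, with an interval of -0.43 to 0.42 (limma adjusted p = 0.995). Set A alone gave 0.22 and set B -0.29.

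S100A11 (calgizzarin), which binds annexin A1 and becomes part of the cornified envelope, was the most abundant of the 10. It was at 923.6, 912.8 and 1149 FPKM in knockdown replicates 1, 2 and 3, against 840.1 and 975.2 FPKM in the controls. The groups overlapped, and the log2 difference was 0.13 with an interval of -0.26 to 0.51 (limma adjusted p = 0.765). By set it differed in sign (set A 0.29, set B -0.095), and quantile normalization gave -0.084.

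S100A13, which helps to release FGF1 and interleukin-1 alpha from cells by a route outside the secretory pathway, was at 39.0, 37.3 and 59.8 FPKM in knockdown replicates 1, 2 and 3, against 41.1 and 51.3 FPKM in the controls. Knockdown replicate 3 was the highest library and knockdown replicate 2 the lowest. Its log2 difference was -0.05 with an interval of -0.60 to 0.50 (limma adjusted p = 0.948). Set A alone gave 0.23 and set B -0.46. S100A13 shares 3435 bases of its locus with S100A1 on the opposite strand, and 5029 bases with the noncoding AL162258.1 on its own strand. Antisense genes also overlap the loci of S100A11 (AL450992.1, 10269 bases) and S100A6 (BX470102.1, 517 bases). Whether counting used strand is not given in the sources used here, so reads from the shared bases cannot be told apart. For AL162258.1 strand would not separate them.

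S100P, first described in placenta, was at 2.32, 1.74 and 3.39 FPKM in knockdown replicates 1, 2 and 3, against 1.58 and 3.10 FPKM in the controls. It varied about as much within the groups as over all libraries. The log2 difference of 0.09 had the widest interval of the 10, -0.65 to 0.83 (limma adjusted p = 0.928). Set A alone gave 0.67 and set B -0.69.

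The levels of the 10 genes covered a wide range. S100A11 averaged 960.1 FPKM over the 5 libraries and S100A7 1.60 FPKM, 599.3 times less. The order by mean was S100A11, S100A6, S100A2, S100A14, S100A16, S100A13, S100A9, S100P, S100A8 and S100A7. From S100A11 down to S100P each gene exceeded the next in all 5 libraries. The ranges of S100A6 and S100A2 overlapped, as did those of S100A2 and S100A14, of S100P and S100A8, and of S100A8 and S100A7. In the first 2 of these pairs the order was still the same within each of the 5 libraries. S100P exceeded S100A8 in 4 of 5 libraries and S100A8 exceeded S100A7 in 3 of 5 libraries. Together the 10 genes made up 0.562%, 0.576% and 0.640% of summed FPKM in knockdown replicates 1, 2 and 3, against 0.557% and 0.608% in the controls. This summed share overlapped between the groups.

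**Figure D3:**
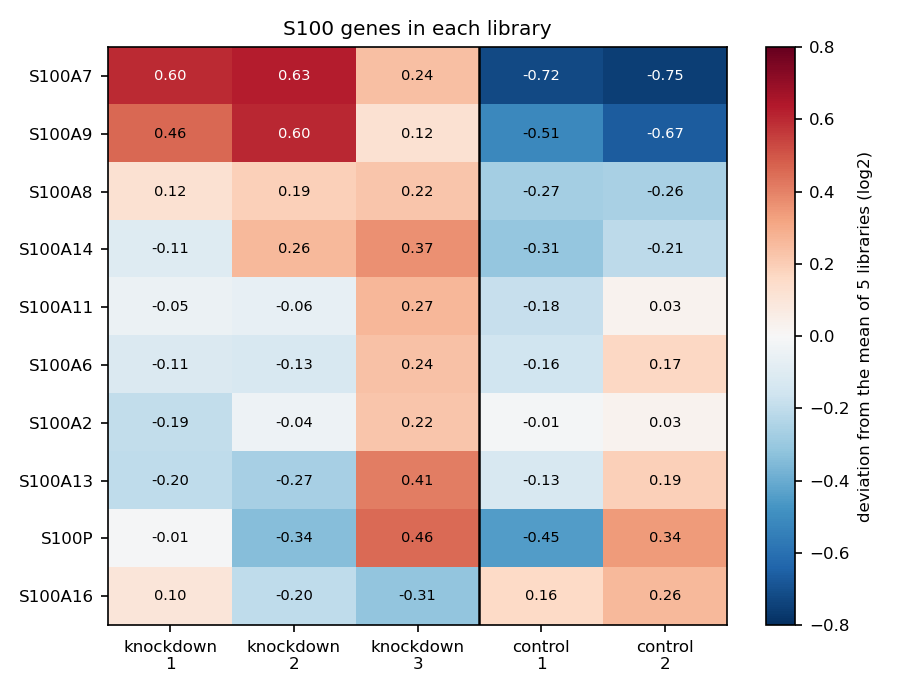
Deviation of each S100 gene (rows) in each library (columns, AHNAK knockdown left of the line and control right of it) from its mean over the 5 libraries, in log2(FPKM + 0.5). Red is above the gene's mean and blue below. S100A7, S100A9, S100A8, S100A14 and S100A16 separate the groups. S100A8, S100A14, S100A11, S100A6, S100A2, S100A13 and S100P are highest in knockdown replicate 3.

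Across the libraries the 10 genes did not share 1 pattern. Knockdown replicate 3 was the highest library for 7 of the 10 genes, and knockdown replicate 2 for S100A7 and S100A9. Knockdown replicate 3 also had the largest FPKM sum (420541, against 374215 to 391071 in the other libraries). The share of all tested genes that were highest there was not counted. By root mean square difference of centred log2 values over the 5 libraries, S100A7 and S100A9 were nearest to each other (0.13), S100A8 and S100A14 nearest to each other (0.13), and S100A6 and S100A11 nearest to each other (0.08). S100A16 was far from every other member, the nearest being S100A6 at 0.30. Among all tested genes averaging 5 FPKM or more, those nearest to S100A9 were GANAB (0.08), FGD3 (0.08) and MKNK2 (0.11). GANAB, a glucosidase subunit of the endoplasmic reticulum, averaged 192.1 ± 29.1 FPKM in knockdown (SD, n = 3) and 100.5 ± 2.49 FPKM in control (SD, n = 2), which is 0.92 on the log2 scale (set A 0.84, set B 1.05).

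Over all tested genes, the deviation of a gene from its mean was related to its GC content with Spearman's rho of 0.61 in knockdown replicate 1, 0.0024 in knockdown replicate 2 and -0.55 in knockdown replicate 3, against 0.19 and 0.12 in the controls. For transcript length rho was -0.014, 0.098 and -0.21 in knockdown replicates 1, 2 and 3, against 0.23 and -0.030 in the controls. These are descriptions across genes, which are not independent. The longest annotated transcripts of the 10 genes run from 479 bases (S100A7) to 2184 bases (S100A13), where the median tested gene has 3477, and all 10 are richer in GC (49.1% to 60.2%) than the median tested gene (48.5%). In knockdown replicate 3, where GC-rich genes tended to lie low and genes of shorter transcripts high, 7 of the 10 S100 genes had their highest value. Whether either relation had a part in this was not tested. After a loess correction of each library for both properties, the log2 differences were 1.06 for S100A7, 0.86 for S100A9, 0.31 for S100A8, 0.34 for S100A14 and -0.43 for S100A16. The signs of these 5 were the same as before correction, and limma adjusted p values were 0.192 for S100A7 and 0.198 for S100A9. Without knockdown replicate 3, the groups did not overlap for 7 of the 10 genes, with S100A2 and S100A13 now also lower, against 49.1% of all tested genes. Without control replicate 2 it was 8 of 10, with S100A6, S100A11 and S100P now also higher, against 53.1%.

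**Figure D4:**
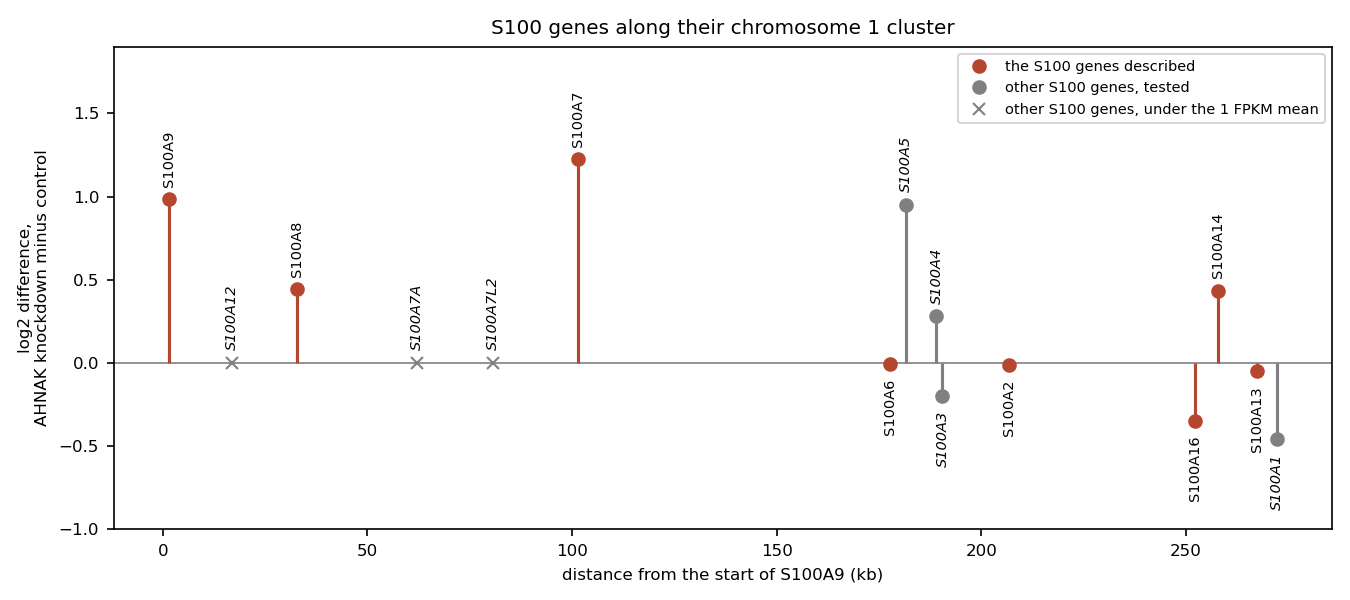
Log2 difference, AHNAK knockdown minus control (vertical axis), of S100 genes by their distance from the start of S100A9 on chromosome 1 (horizontal axis, kb). Red marks the genes described, grey points other tested S100 genes, and crosses S100 genes under a mean of 1 FPKM, which were not tested; S100A11 and S100A10 lie outside the map and S100P on another chromosome.

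Along the chromosome 1 cluster, genes with differences above and below 0 lay side by side. Between S100A9 and S100A7, S100A12 was listed at 0 in 4 of 5 libraries and S100A7L2 at 0 in all 5, beside the low S100A7A. Of 11 other S100 genes, 5 reached a mean of 1 FPKM, 3 with a fitted difference above 0 and 2 below, with a median of 0.17. S100A5, which lies 0.902 kb from S100A6, was at 0.988, 2.06 and 1.35 FPKM in knockdown replicates 1, 2 and 3, against 0.730 and 0.301 FPKM in the controls. Its groups did not overlap (log2 difference 0.95, limma adjusted p = 0.387, set A 0.43, set B 1.68), and like S100A7 it passed the filter only through its knockdown level. S100A1, which shares its locus with S100A13, was lower at 2.36 ± 0.07 FPKM in knockdown (SD, n = 3) and 3.43 ± 0.08 FPKM in control (SD, n = 2), a log2 difference of -0.46 (limma adjusted p = 0.387, set A -0.49, set B -0.43). S100A4, a member linked to cell motility, had a log2 difference of 0.28 without overlap, S100A3 one of -0.20 and S100A10 one of 0.17, the last 2 with overlap. Sets agreed in sign for S100A4 (set A 0.35, set B 0.22) and S100A3 (set A -0.27, set B -0.11) and not for S100A10 (set A 0.47, set B -0.25). S100PBP, which encodes a binding protein of S100P, had -0.09 (set A -0.055, set B -0.14). Filaggrin (FLG), a fused-type S100 protein of the same complex, was lower at 3.39 ± 1.09 FPKM in knockdown (SD, n = 3) and 6.82 ± 1.81 FPKM in control (SD, n = 2), a log2 difference of -0.93 (limma adjusted p = 0.387, set A -1.33, set B -0.39). It was the only one of 7 fused-type genes with a mean of 1 FPKM or more.

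Receptors through which extracellular S100 proteins act were mostly at low levels. Of 10 listed, 4 were tested, with 0 at an unadjusted limma p under 0.05. AGER, the receptor for advanced glycation end products, was at 0.044 to 0.065 FPKM in knockdown and 0.049 to 0.063 FPKM in control. BSG (basigin, a receptor of S100A9) was at 506.9 ± 9.81 FPKM in knockdown (SD, n = 3) and 422.9 ± 4.99 FPKM in control (SD, n = 2), without overlap and with a log2 difference of 0.26 (limma adjusted p = 0.461, set A 0.26, set B 0.28). TLR4 had -0.04 (set A -0.18, set B 0.14) and EMB -0.03 (set A 0.067, set B -0.18). Of 5 annexin partners 4 were tested, 2 with a difference above 0 and 2 below, and the 3 of smallest p were ANXA11 (0.17, set A 0.15, set B 0.20), ANXA1 (0.29, set A 0.52, set B -0.017) and ANXA2 (-0.10, set A -0.088, set B -0.14). Among 11 tested intracellular targets, 6 were above 0 and 5 below, with 0 at an unadjusted limma p under 0.05. They included PPP5C (-0.26, set A -0.18, set B -0.39), IL1A (-0.49, set A -0.94, set B 0.11) and CACYBP (0.24, set A 0.31, set B 0.14).

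Genes that accompany S100A7, S100A8 and S100A9 in psoriatic or wounded epidermis did not share one direction. Of 17 tested, 6 had a difference above 0 and 11 below, with a median of -0.15. At an unadjusted limma p under 0.05, 3 of the 17 were higher and 4 lower, beside 6.22% and 5.48% of all tested genes, and 0 passed over all genes. The 3 higher were DEFB1 (1.49, set A 0.57, set B 2.70), SERPINB4 (0.74, set A 0.28, set B 1.42) and SERPINB3 (0.47, set A 0.42, set B 0.64). Of the 17, the 3 of smallest p were lower in every knockdown library: KRT6A (-1.01, set A -0.68, set B -1.54), a keratin of wounded epidermis, IL1B (-1.04, set A -1.58, set B -0.33), a cytokine, and KRT17 (-0.81, set A -0.50, set B -1.29). Of 11 tested cytokine receptors upstream of these genes, 0 had an unadjusted limma p under 0.05. The 3 of smallest p were IL17RC (0.42, set A 0.20, set B 0.76), IL6ST (-0.41, set A -0.78, set B 0.095) and IL22RA1 (-0.28, set A -0.36, set B -0.16). Of 16 transcription factors known upstream of S100 or epidermal genes, 2 were higher and 2 lower at an unadjusted limma p under 0.05, beside 6.22% and 5.48% of all tested genes. ELF3, an epithelial ETS factor, stood at 144.1 ± 24.7 FPKM in knockdown (SD, n = 3) and 89.4 ± 3.51 FPKM in control (SD, n = 2), and its log2 difference was 0.67 (limma adjusted p = 0.379, set A 0.50, set B 0.98). CEBPD had 0.47 (set A 0.32, set B 0.71) and GRHL3 -0.48 (set A -0.60, set B -0.30), both without overlap between the groups. Of 31 listed genes of the same complex, chiefly of the cornified envelope, 6 were tested, 5 above 0 and 1 below with a median of 0.82. These 6 include PGLYRP3 (0.16, set A 0.30, set B 0.098) and PGLYRP4, which encode peptidoglycan recognition proteins and not envelope proteins. The 3 of smallest p were IVL (0.85, set A 0.46, set B 1.47), PGLYRP4 (1.05, set A 0.35, set B 2.02) and SPRR1B (0.79, set A 0.29, set B 1.57).

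S100A8 and S100A9 are also major proteins of neutrophils and monocytes, and marker RNAs of those cells were low in these libraries. Of 12 myeloid markers, 11 stayed under 1 FPKM in every library, the other being CD14 at up to 1.06 FPKM, and summed levels were 1.18 to 2.01 FPKM in knockdown and 1.05 to 1.34 FPKM in control. S100A8 itself was at 1.92 to 2.10 FPKM in knockdown and 1.34 to 1.36 FPKM in control, so these sums are not small beside it. CD14 was at 0.686 to 1.06 FPKM in knockdown and 0.569 to 0.724 FPKM in control. ITGAM was at 0.320 to 0.403 FPKM in knockdown and 0.359 to 0.438 FPKM in control. MPO, CSF3R and TYROBP were listed at 0 in all 5 libraries, and PTPRC was at 0 in 4 of them and at 0.012 FPKM in knockdown replicate 3. The part of myeloid RNA in the S100 levels was not tested. Keratinocyte markers were high in all libraries, with summed levels of 5158 to 6474 FPKM in knockdown and 6349 to 7878 FPKM in control. Of 10, 2 had a difference above 0 and 8 below, including KRT15 at 0.53 (set A 0.57, set B 0.60) and KRT14 at -0.70 (set A -0.26, set B -1.38). Fibroblast markers summed to 6.12 to 10.2 FPKM in knockdown and 3.30 to 5.02 FPKM in control. That sum was higher in every knockdown library, mostly through DCN (1.78, set A 0.44, set B 3.52) and COL3A1 (0.74, set A 0.29, set B 1.34). DCN was at 0 FPKM in control replicate 2, with a control mean of 0.683 FPKM, and passed the filter only through its knockdown level. LUM, under the filter, was also higher in every knockdown library (0.232 to 0.842 FPKM, against 0.190 and 0 FPKM in control replicates 1 and 2). COL1A1 had -0.40 (set A -0.16, set B -0.74), and PDGFRA and THY1 were at or near 0 throughout. The part of the fibroblast sum in the S100 differences was not tested. Melanocyte markers summed to 2.78 to 3.20 FPKM in knockdown and 3.23 to 3.63 FPKM in control. PMEL had -0.44 (set A -0.32, set B -0.62) and MITF -0.08 (set A -0.38, set B 0.31). PMEL and DCT were lower in every knockdown library than in both controls. MLANA (0.447 to 0.647 FPKM in knockdown, 0.291 to 0.319 FPKM in control) and SOX10 (0.044 to 0.053 FPKM, against 0.018 to 0.027 FPKM) were higher in every one. MLANA, SOX10 and DCT were under the 1 FPKM filter.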

How the data were processed

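RNA of 5 HaCaT libraries was measured by RNA sequencing. The authors deposited 1 table of FPKM values in which every library has a column. HISAT2 2.0.1 and StringTie 2.0.6 are named in the submitters' processing notes, as are the builds GRCh38 and mm9 without a role. The annotation, the strand setting and read totals: not given in the sources used here. From these values, log2(FPKM + 0.5) was tested for genes averaging 1 FPKM or more with limma 3.58.1 in R 4.3.3 (intensity trend, no covariate, two-sided, Benjamini-Hochberg over all 12196 genes), a step checked on simulated data. Exact permutation tests used all 10 splits. Steps of values under 0.3 FPKM were compared between libraries as ratios at 5 decimals. GENCODE release 29, matched by symbol (96.3% of tested genes), gave coordinates, length and GC content (loess span 0.3), and RefSeq gave promoters.

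The members, gene lists and tests were chosen with earlier results of these data known, so no count over them is independent support. Besides the 10 genes, the text names AHNAK and other S100 genes past the 1 FPKM filter. It also names the 3 tested genes of smallest p in each list and the nearest genes by pattern. Genes named for being at or near 0 and the promoter letters searched were chosen after their values were seen. So were the markers CD14, ITGAM, LUM, MLANA, SOX10 and DCT, and the genes PGLYRP3, DEFB1, SERPINB3 and SERPINB4.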

Additional observations from a re-analysis of the deposited data

How the results depend on the processing

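S100A7, S100A8, S100A9 and S100A14 stayed higher and S100A16 lower in every alternative run. Of 187 alternative fits of the 10 genes, 165 kept the direction of the reported value. The groups of those first 5 genes did not overlap, so leaving out, splitting or weighting libraries could not reverse their signs. Changing the filter, the trend or the prior left each log2 difference unchanged by construction. S100A7 ranged over 0.95 to 1.60, S100A9 over 0.80 to 1.27, S100A8 over 0.31 to 0.55, S100A14 over 0.34 to 0.57 and S100A16 over -0.47 to -0.26. Under array weights (0.530, 3.98 and 0.257 for knockdown replicates 1, 2 and 3), S100A7, S100A8, S100A9 and S100A14 passed, 4 of the 10 genes. In all, 1428 of 12196 tested genes passed there, and the knockdown group rested mostly on replicate 2. A pseudocount of 1, no trend, or a robust prior each left 1 gene past the threshold, 121 passed within set A, where a lone control is assumed to vary like the knockdown libraries, and leaving out each library in turn gave 0 to 9 (9 without control replicate 1). None of these beyond array weights was an S100 gene described here. Genes without overlap numbered 5 to 8 of 10 when each library was left out in turn, beside 36.2% to 53.1% of all tested genes, an alternative added after the data had been seen. The count of 5 stood beside 50.2% without knockdown replicate 1, 36.2% without knockdown replicate 2 and 51.7% without control replicate 1.

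Reversed signs occurred for genes near 0. S100A2 was 0.027 within set A and -0.13 to 0.082 when libraries were left out. S100A6 was 0.00081 with the set term, 0.22 within set A and -0.17 to 0.16 when libraries were left out. S100A11 was -0.084 with quantile normalization, -0.10 within set B and -0.0082 after the GC content and length correction. S100A13 was 0.23 within set A and -0.27 to 0.11 when libraries were left out. S100P was -0.21 with array weights, -0.12 with the replicate block, -0.69 within set B, -0.0035 after the GC content and length correction and -0.31 to 0.48 when libraries were left out. The cause was not tested. Whether the replicate numbers pair the libraries was not settled. Correlations of deviations over genes were -0.06 for number 1 and -0.58 for number 2. With 2 controls, the control deviations mirror each other, so these correlations cannot decide it. The replicate block left 0 genes past the threshold. It gave S100A7 at 1.35 and S100A9 at 1.12, the same estimates as without knockdown replicate 3. With read totals unknown, no counting interval could be given for the low genes.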
